A study of Mus musculus with 6 samples.

Results

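The 9 genes described here encode proteins of the myelin sheath and mark mature oligodendrocytes: Mbp, Mobp, Mal, Cldn11, Cnp, Mog, Mag, Opalin and Ermn. They were taken by gene symbol from a table of 38087 genes measured by RNA-seq in the mouse brain, and each symbol matched 1 gene. All 9 were expressed in all 6 libraries and passed the filter on low counts, which 16337 genes passed. The question asked of them was whether their RNA differed in the aged brain of Sgo1-/+ mice.

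The libraries came from 3 wild-type (WT) mice and 3 Sgo1-/+ mice, 1 library per mouse, on a C57BL6 background at 24 months of age and without treatment. Sgo1-/+ mice have only a single working copy of Shugoshin-1, which protects the cohesion of sister chromatids in dividing cells, and the reduction holds in the whole body, so that no cell type was targeted. By the study's methods the RNA was from cerebrum with cortex and hippocampus, from which olfactory bulb, cerebellum and medulla had been removed. WT replicate 1 and Sgo1-/+ replicate 2 were male and the others were female, and all WT libraries shared sequencing run 258 while all Sgo1-/+ libraries shared run 259, so genotype and run cannot be told apart.

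Oligodendrocytes wrap axons of the central nervous system in many layers of membrane, which speeds the conduction of impulses. Most of the sheath is compact myelin, in which basic proteins hold the cytoplasmic faces of the membrane together, while the innermost and outermost turns and the loops at the sheath's edges keep cytoplasm. Oligodendrocyte precursors switch these genes on as they mature, under transcription factors that include Sox10, Olig1, Olig2 and Myrf. White matter tracts, brain stem and thalamus are richer in myelin than the cortical gray matter. In bulk RNA, fewer oligodendrocytes and less RNA per oligodendrocyte cannot be told apart.

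Total estimated counts were 11123917 to 12505561 per library, and the targeted gene, with 0 to 7 estimated counts per library, was too low to check the labels. WT replicate 1 stood apart from the others. Among 13 markers of brain stem and spinal cord neurons, led by Slc6a5 and Chat, all but Chat were highest in it, and their summed normalized count was 4504 against 99.2 to 231 in the other 5 libraries, where 2 to 8 of the 13 were at 0, while none was at 0 in WT replicate 1. Slc6a5, a glycine transporter, had 2654 there against 1.01 to 40.6, and Chat, which striatal and cortical neurons also express, had 188 against 38.9 to 194. All 8 markers of cerebellar granule cells, led by Zic1 and Cbln3, were also highest there, with a sum of 17585 against 544 to 1534, as were all 8 of Purkinje cells, led by Itpr1 and Calb1, with 37933 against 11713 to 15211. The 8 markers of cortical excitatory neurons, led by Nrgn and Slc17a7, summed to 4796 in WT replicate 1 and to 20767 to 29433 in the other 5. These values go against the dissection that the study describes, and results below are given with and without the library labelled WT replicate 1.

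Mbp was among the most abundant RNAs of these brains, and Opalin the least abundant of the 9. Levels of different genes were compared as normalized counts per kilobase of annotated exon sequence, where a normalized count is the estimated count scaled for library size by the TMM method. Mbp, encoding myelin basic protein, ranked 42nd of 16084 genes, with 4774 ± 2072 normalized counts per kilobase (SD over 6 libraries). Mobp followed with 2146 ± 800, Cnp with 1421 ± 446, Mal with 1213 ± 283 and Cldn11 with 934 ± 310. Mag held 671 ± 349 normalized counts per kilobase, Mog 511 ± 221, Ermn 349 ± 167 and Opalin 85.0 ± 41.2, the last at rank 6530. Only Mbp and Mobp, and Ermn and Opalin, differed as neighbors in this order by more than the larger of their SDs. Of the 8 pairs of neighbors, 6 nevertheless kept their order in all 6 libraries. Cnp was above Mal in 4 libraries and Cldn11 above Mag in 5. The lengths count every annotated exon of a gene, which for Mbp, with 16 annotated transcripts, came to 8469 bases.

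**Figure D1:**
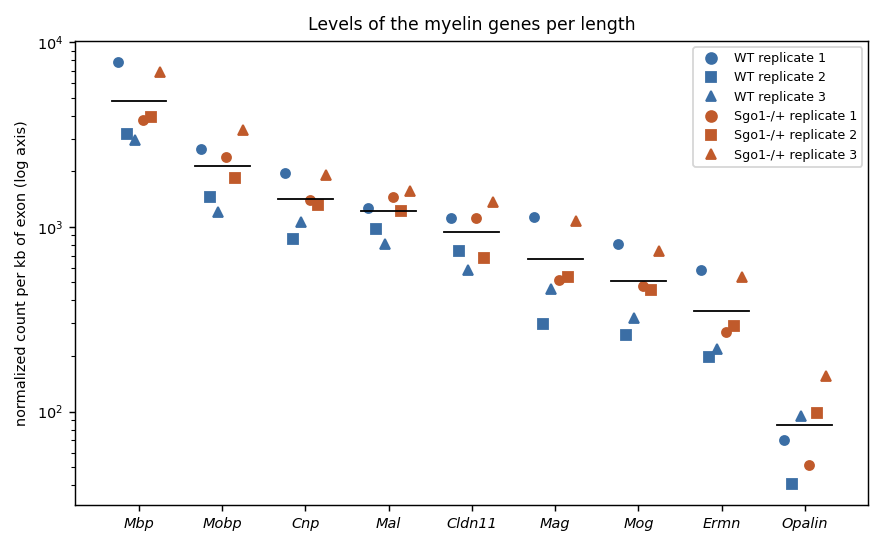
Level of each myelin gene in normalized counts per kilobase of exon (log axis), with a point for each of the 6 libraries and a bar at the mean. Mbp lies highest with a mean of 4774 and Opalin lowest with 85.0. From its lowest to its highest library, a gene spreads 1.94-fold (Mal) to 3.83-fold (Mag).

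The promoters of 4 members are printed because these genes are controlled in oligodendrocytes by factors whose recognition letters can be looked for. Sequences are from RefSeq on GRCm38.p6, the build of the deposited table, 5′ to 3′ on the gene's strand, ending before the first annotated exon, with matches to the searched motifs in capitals. The motifs were CTGGCAC or CTGGTAC for Myrf and ACAAAG or ACAATG for SOX proteins, each on both strands.
Mobp, chr9:120149492-120149706, plus strand: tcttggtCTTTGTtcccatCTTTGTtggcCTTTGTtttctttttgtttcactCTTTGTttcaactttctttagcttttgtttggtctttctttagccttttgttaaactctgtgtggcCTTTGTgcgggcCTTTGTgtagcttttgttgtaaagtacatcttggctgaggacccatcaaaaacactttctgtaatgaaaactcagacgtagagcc
Cnp, chr11:100574689-100574903, plus strand: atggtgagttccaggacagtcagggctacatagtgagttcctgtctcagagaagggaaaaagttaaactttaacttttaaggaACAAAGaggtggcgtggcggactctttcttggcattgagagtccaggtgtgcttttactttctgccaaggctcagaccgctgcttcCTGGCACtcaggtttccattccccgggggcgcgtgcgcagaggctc
Mog, chr17:37023399-37023648, minus strand: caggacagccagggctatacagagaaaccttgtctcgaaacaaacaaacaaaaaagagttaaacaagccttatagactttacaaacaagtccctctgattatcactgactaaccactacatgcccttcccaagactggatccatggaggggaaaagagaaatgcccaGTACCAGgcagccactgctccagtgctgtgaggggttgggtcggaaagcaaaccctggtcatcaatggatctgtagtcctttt
Opalin, chr19:41077114-41077363, minus strand: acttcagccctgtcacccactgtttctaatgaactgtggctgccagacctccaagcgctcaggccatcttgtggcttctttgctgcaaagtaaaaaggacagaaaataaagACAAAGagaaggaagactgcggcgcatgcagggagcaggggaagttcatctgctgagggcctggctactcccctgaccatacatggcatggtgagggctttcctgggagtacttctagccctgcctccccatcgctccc

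In the 250 bases before a listed start, a SOX motif was found in 5 of the 8 members with an entry (Mobp, Mag, Cnp, Opalin and Ermn), and in 25.2% of 32851 promoter windows of all genes. Mobp held 6 SOX matches, which was the only window of the 32851 with 6 or more. A Myrf motif was found in 3 of the 8 (Mog, Mag and Cnp), against 5.93% of all windows. Members were counted at any listed start, whereas the shares of all genes are per window. Mag had both motifs before its starts at 30914863 and 30914922 and neither before the start at 30914321. TATAAA was in none of the 8 and in 12.4% of all windows. These are matches of letters and not sites of binding, and Mbp had no entry.

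None of the 9 genes passed the test between Sgo1-/+ and WT brains, and each genotype had a library with high levels of most of them. Summed over the 9 genes, myelin RNA made up 0.940% of all counts in WT replicate 1, against 0.392% and 0.352% in the other WT libraries. The Sgo1-/+ libraries held 0.516%, 0.487% and 0.837%. WT replicate 1 and Sgo1-/+ replicate 3 were thus high, WT replicates 2 and 3 low, and Sgo1-/+ replicates 1 and 2 between them. The group means were 0.561% in WT and 0.614% in Sgo1-/+, and the WT mean was 0.372% without replicate 1.

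The basic proteins of compact myelin are Mbp and Mobp. Mbp (ENSMUSG00000041607, chromosome 18, 82475146 to 82585637, plus strand, mm10) held 66287, 27019 and 24985 normalized counts in the WT libraries and 32054, 33512 and 58715 in the Sgo1-/+ libraries, always given in the order of replicates 1, 2 and 3. Its 4 middle and low libraries lay within 24985 to 33512, with the Sgo1-/+ pair above the WT pair, and the group means of 39430 ± 23281 and 41427 ± 14990 (SD, n = 3) overlapped widely. Mobp (chromosome 9, 120149742 to 120181484, plus strand), whose product lies with Mbp at the cytoplasmic faces, had 17976, 9936 and 8234 in WT and 16419, 12675 and 22944 in Sgo1-/+. For Mobp, Sgo1-/+ replicate 3 was highest, and Sgo1-/+ replicate 1 came close to WT replicate 1.

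Mal and Cldn11 encode membrane proteins of compact myelin. Mal (chromosome 2, 127633226 to 127656695, minus strand), a proteolipid of sorted membrane domains, varied least of the 9, with 3524, 2712 and 2236 normalized counts in WT and 4012, 3405 and 4337 in Sgo1-/+. All 3 Sgo1-/+ libraries were above WT replicates 2 and 3, and 1 of them, replicate 2, was below WT replicate 1. Cldn11 (chromosome 3, 31149946 to 31164324, plus strand), the claudin of the tight junctions between myelin layers, had 2078, 1384 and 1096 in WT and 2090, 1264 and 2563 in Sgo1-/+. Here Sgo1-/+ replicate 2 was low, between WT replicates 2 and 3.

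Cnp, Mag and Mog belong to the parts of the sheath that keep cytoplasm or face outward. Cnp (chromosome 11, 100574904 to 100591729, plus strand), a phosphodiesterase of uncompacted myelin, had 7162, 3145 and 3874 normalized counts in WT and 5097, 4784 and 6971 in Sgo1-/+. Mag (chromosome 7, 30899183 to 30914327, minus strand), the adhesion molecule of the innermost turn that faces the axon, had 4617, 1206 and 1869 in WT and 2105, 2184 and 4406 in Sgo1-/+. Mog (chromosome 17, 37010746 to 37023398, minus strand), on the outer surface of the sheath, had 1383, 445 and 548 in WT and 816, 775 and 1254 in Sgo1-/+. All 3 genes had WT replicate 1 highest, Sgo1-/+ replicate 3 next and WT replicates 2 and 3 lowest, and the order of Sgo1-/+ replicates 1 and 2 between them differed.

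Ermn and Opalin are markers of late maturation. Ermn (chromosome 2, 58045113 to 58052864, minus strand), an actin-binding protein, had 2119, 714 and 789 normalized counts in WT and 976, 1062 and 1943 in Sgo1-/+, again with WT replicate 1 and Sgo1-/+ replicate 3 highest and WT replicates 2 and 3 lowest. Opalin (chromosome 19, 41062474 to 41077113, minus strand), a membrane glycoprotein of central myelin, had 206, 120 and 278 in WT and 152, 289 and 457 in Sgo1-/+. Only for Opalin was WT replicate 1 not the highest WT library, as it lay below WT replicate 3, and Opalin also had the fewest counts of the 9. Short stretches of exon are shared with antisense genes in Cnp, 4.2% with Dnajc7, and in Ermn, 6.5% with Galnt5, and since the TruSeq kit version named in the labels does not mark strand, reads there cannot be assigned to either gene.

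**Figure D2:**
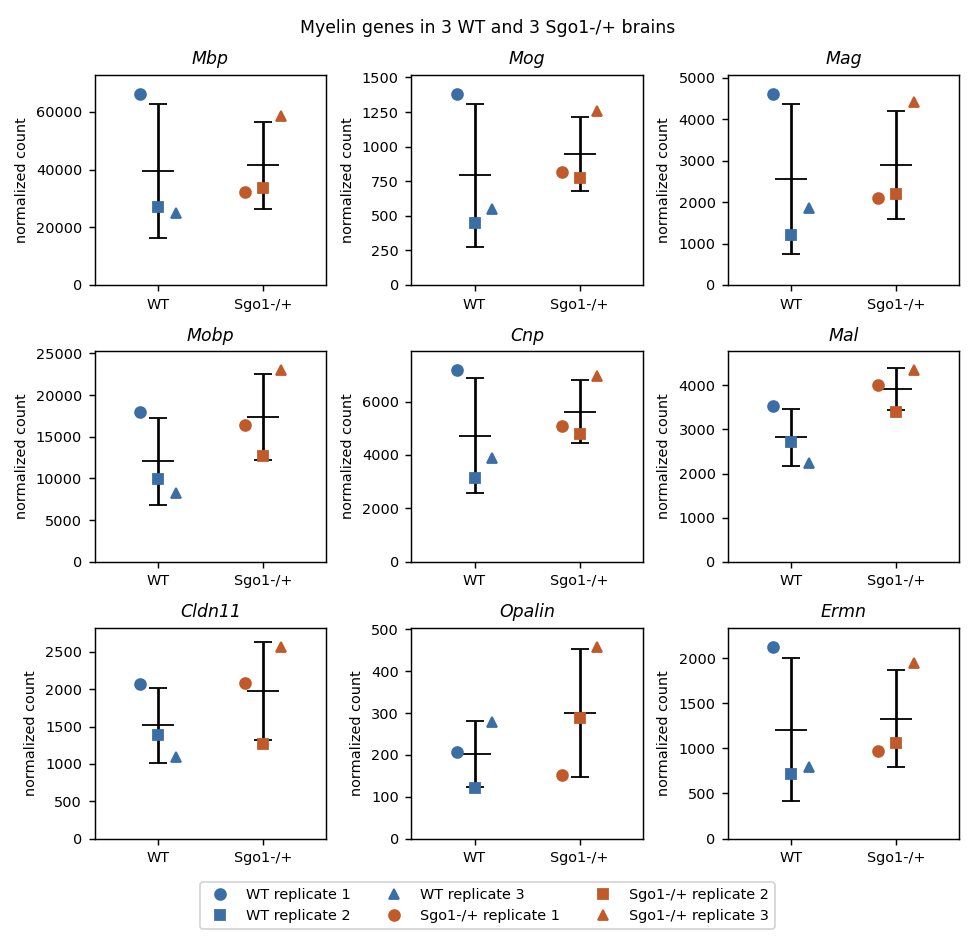
Normalized count of each myelin gene in each library, with a panel per gene and WT and Sgo1-/+ libraries in separate colors. Black bars give the mean and SD of each group. Log2 ratios to a gene's median over the 6 libraries, not drawn, were summarized as a median over the 9 genes. This median was 0.54 in WT replicate 1 and 0.67 in Sgo1-/+ replicate 3. It was -0.54 and -0.39 in WT replicates 2 and 3, and near 0 in Sgo1-/+ replicates 1 and 2.

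Against this spread the genotype difference was small. Tested by the quasi-likelihood method of edgeR, adjusted after Benjamini and Hochberg over the 16337 genes, 0 of 9 members were called at an adjusted p under 0.05, as were 0 of all genes tested (0%), and each member had an adjusted p of 0.9999. At an unadjusted p under 0.05, 1 member passed, Mal, against 2.04% of all genes, or 0.808% counted as higher in Sgo1-/+ only. DESeq2's Wald test and edgeR's likelihood ratio test called 0 of the 9 as well, and 3 and 2 of all genes. All 9 log2 fold changes (Sgo1-/+ against WT) were above 0, as were 49.8% of all genes, and their median was 0.26. The groups overlapped for all 9, whereas they did not for 6.81% of all genes. These 9 genes vary together across libraries, so that 9 positive values are not 9 independent observations.

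The log2 fold changes ran from 0.07 (SE 0.44) for Mbp to 0.57 (SE 0.45) for Opalin. Mal had 0.47 (SE 0.19, unadjusted p = 0.0433), and Mobp had 0.53 (SE 0.35). Cldn11 stood at 0.38 (SE 0.32), Mog at 0.26 (SE 0.44), Cnp at 0.25 (SE 0.32), Mag at 0.18 (SE 0.53) and Ermn at 0.14 (SE 0.47). For all but Mal, Mobp, Cldn11 and Opalin the SE was larger than the difference. In exact two-sided permutation tests of the normalized counts, whose smallest possible p with 3 against 3 is 0.1, p was 0.2 for Mal, 0.3 for Mobp and 0.4 to 0.9 for the others. SEs of this size leave room for differences of moderate size in either direction for Mbp, Mag, Mog and Ermn.

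Without WT replicate 1 the values in Sgo1-/+ were 1.51 to 1.91 times those in WT, with all 9 log2 fold changes above 0 (51.3% of all genes) and no gene called. The WT mice left in this fit were female, while Sgo1-/+ replicate 2 was male. The log2 fold changes then were 0.93 (SE 0.23) for Mog, 0.93 (SE 0.24) for Mobp, 0.68 (SE 0.19) for Cnp, 0.67 (SE 0.26) for Mbp and 0.66 (SE 0.14) for Mal. Mag had 0.91 (SE 0.35), Ermn 0.82 (SE 0.29) and Cldn11 0.67 (SE 0.28). All but Opalin, at 0.59 (SE 0.49, unadjusted p = 0.264), had an unadjusted p under 0.05, with 0.00195 for Mal, 0.00401 for Mog and 0.00548 for Mobp. That made 8 of 9, against 3.77% of the 16617 genes tested, or 1.86% counted as higher. Since these genes vary together, the 8 are not independent observations. The edgeR p, adjusted after Benjamini and Hochberg, was 0.9995 for each of the 9, and over all alternatives tried it ran from 0.764 (Mal) to 1.00. All 3 Sgo1-/+ libraries were above both remaining WT libraries for 7 of the 9, all but Cldn11 and Opalin, compared with 8.72% of all genes.

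Sgo1-/+ replicate 3 contributed to those values. With both it and WT replicate 1 left out, a comparison of 2 against 2 libraries chosen after seeing the data, the median log2 fold change of the 9 genes fell from 0.68 to 0.48. It was 0.68 for Mog and Mobp, 0.58 for Mal, 0.33 for Mbp and 0.15 for Opalin. In that fit all 9 values were above 0 (50.1% of all genes), 7 of 9 had an unadjusted p under 0.05 (3.19% of all genes, 1.66% counted as higher) and 0 were called. Leaving out Sgo1-/+ replicate 3 alone put the median at 0.06, with Mbp at -0.27, Mag at -0.26 and Ermn at -0.24.

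**Figure D3:**
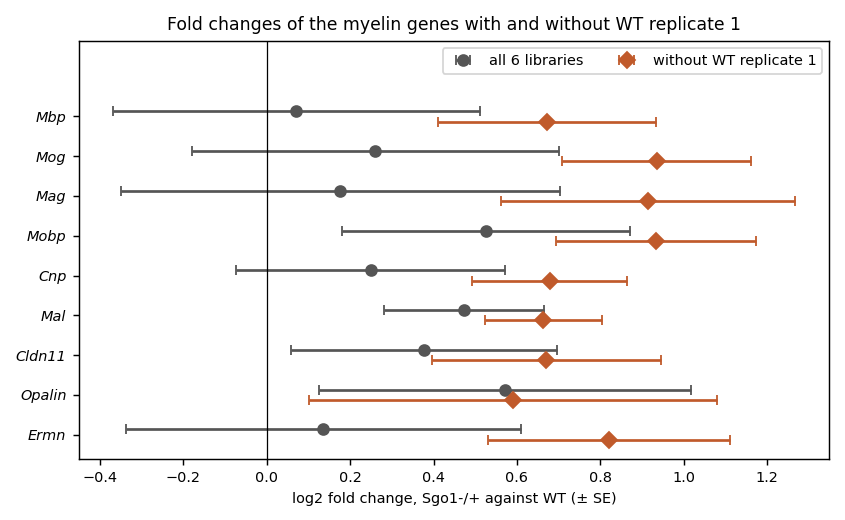
Log2 fold change of each myelin gene, Sgo1-/+ against WT, with its standard error, for all 6 libraries and without WT replicate 1 (edgeR). With all libraries the values run from 0.07 to 0.57 and the bars of Mbp, Mog, Mag, Cnp and Ermn cross 0, and without WT replicate 1 they run from 0.59 to 0.93.

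Variation between libraries of 1 genotype was wide. WT replicate 1 exceeded the mean of the other WT libraries 3.00-fold for Mag, 2.82-fold for Ermn, 2.79-fold for Mog, 2.55-fold for Mbp and 2.04-fold for Cnp. The ratio was lower for Mobp (1.98), Cldn11 (1.68) and Mal (1.42), and Opalin had 1.04. Within Sgo1-/+, replicate 3 exceeded the mean of replicates 1 and 2 by 1.17-fold for Mal to 2.08-fold for Opalin. The coefficient of variation over the 6 libraries was 23.3% for Mal and 52.1% for Mag, with a median of 43.2% over the 9 genes, against 13.5% over the 11296 tested genes with a mean of at least 100 normalized counts.

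The libraries at the extremes were the same for most members. WT replicate 1 was the highest library for 5 (Mbp, Mog, Mag, Cnp and Ermn) and Sgo1-/+ replicate 3 for 4 (Mobp, Mal, Cldn11 and Opalin). Of all tested genes, 28.0% and 12.9% were highest in those libraries. WT replicate 2 was lowest for 5 and WT replicate 3 for 4, and those counts were the same with DESeq2's size factors and with total counts as the scale. WT replicate 1 and Sgo1-/+ replicate 3 together were the highest pair for 6 of 9 members, and for 12.5% of tested genes. Correlations between members are given only as a description over 6 libraries, whose sequencing run cannot be told apart from genotype. The correlation of a member's log2 level with the median of the other members was 0.971 for Cnp, 0.956 for Mog and 0.949 for Ermn. It was 0.939 for Mag, 0.922 for Mbp, 0.910 for Mobp, 0.808 for Cldn11, 0.765 for Mal and 0.491 for Opalin.

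Relative to Mbp in the same library, Mobp lay higher in each of the 3 Sgo1-/+ libraries than in any WT library. This ratio was looked at after the values were seen. Mobp had 27.1, 36.8 and 32.96 normalized counts per 100 of Mbp in the WT libraries and 51.2, 37.8 and 39.1 in the Sgo1-/+ libraries. The groups did not overlap, with means of 32.3 ± 4.86 and 42.7 ± 7.40 (SD, n = 3), and the exact two-sided permutation p was 0.1, the smallest that 3 against 3 allows. WT replicate 2 and Sgo1-/+ replicate 2 lay only 36.8 against 37.8 apart. Of the 8 ratios to Mbp, 1 did not overlap between groups, against 1.82% of 16336 genes taken the same way. That share is not a like background. The members vary together with Mbp, so its wide spread partly cancels in their ratios, which need not hold for other genes. For normalized counts, not divided by Mbp, the share without overlap was 6.81%. The other 7 overlapped, with exact permutation p of 0.2 to 0.8.

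Mal relative to Mbp was lowest in the libraries with the most myelin RNA, at 5.32 per 100 of Mbp in WT replicate 1 and 7.39 in Sgo1-/+ replicate 3, against 8.95 to 12.5 in the other 4. Mbp is the divisor here and also the largest part of the summed myelin RNA, so this order is not separate from the level of Mbp. Ermn was steadier, with 3.00 ± 0.309 in WT and 3.17 ± 0.133 in Sgo1-/+ (SD, n = 3). Opalin ran from 0.311 in WT replicate 1 to 1.11 in WT replicate 3.

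**Figure D4:**
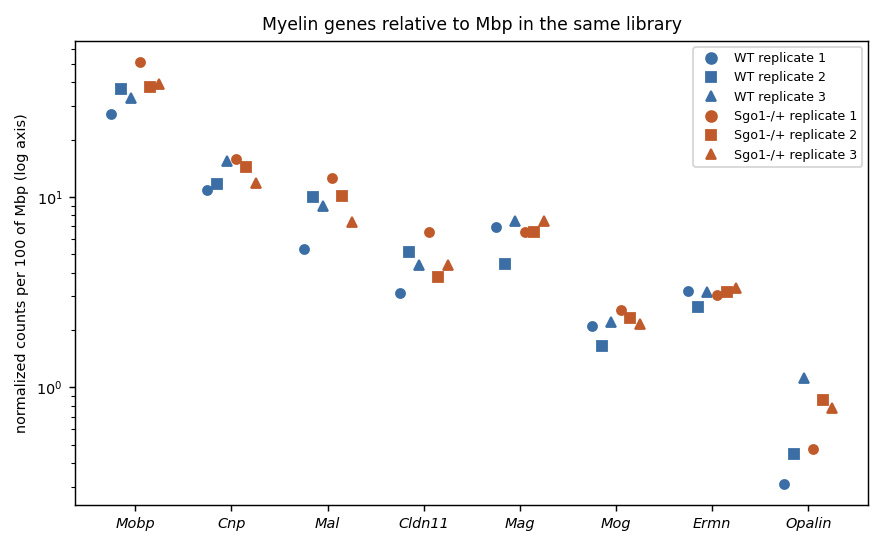
Normalized counts of 8 myelin genes per 100 of Mbp in each library. For Mobp the 3 Sgo1-/+ libraries (37.8 to 51.2) lie above the 3 WT libraries (27.1 to 36.8), and for the other 7 genes the groups overlap.

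Markers of other brain regions also set apart the libraries with the most myelin RNA. Besides the brain stem and cerebellar markers of WT replicate 1, 8 thalamic markers, led by Rora and Calb2, summed to 7776 normalized counts in WT replicate 1 and 6236 in Sgo1-/+ replicate 3, against 2707 to 3429 in the other 4 libraries. The single markers differed between those libraries: Calb2 was highest in WT replicate 1 (2346) and lowest in Sgo1-/+ replicate 3 (236), and Prkcd, named after values were seen, had 2114 in Sgo1-/+ replicate 3 against 142 to 537 elsewhere. The 8 choroid plexus markers, led by Ttr and Kl, summed to 21387 and 24613 in the same pair of libraries, to 7696 in WT replicate 2 and to 403 to 1295 in the rest. The 8 striatal markers, led by Ppp1r1b and Pde10a, summed to 4198 in WT replicate 1 and 14683 in Sgo1-/+ replicate 3, the lowest values, and to 17923 to 34475 elsewhere. Sgo1-/+ replicate 3 was not low in cortical markers, with a sum of 29433, the highest of the 6, and 7 of the 13 brain stem markers were at 0 in it. The part of these markers in the myelin result was not tested.

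The summed markers of other glia and of vessels spread less, although some single markers did not. Sums over 8 astrocyte markers (Slc1a2 and Aldoc the most abundant) were 54224 to 64778, with WT replicate 1 highest. Slc1a2, a glutamate transporter, was lowest in WT replicate 1, with 14711 normalized counts against 25090 to 28829, while Aldoc was highest there, with 21900 against 9819 to 13098. Aqp4, the water channel of astrocyte endfeet, named after values were seen, had 5155 in WT replicate 1 against 1259 to 2228, a coefficient of variation of 68.2%. Sums over 8 microglial markers (Csf1r among the most abundant) were 4515 to 6493, with WT replicate 1 lowest. Those over 8 endothelial markers (Flt1 and Slco1a4) were 2633 to 3582. Markers of Schwann cells, which make myelin in peripheral nerves, bear on the source of the shared myelin proteins: Pmp2 was at 0 in 5 of 6 libraries, where a 0 allows up to 3 counts. The sum of the 6 Schwann markers was 561 to 1273, most of it from Drp2 ahead of Egr2, and it was lowest in WT replicate 1.

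Genes of 5 further oligodendrocyte lists followed the same libraries, and 0 of their 48 genes were called by edgeR's quasi-likelihood test, with 0 at an unadjusted p under 0.05 with all 6 libraries (2.04% of all genes) and 16, all higher in Sgo1-/+, without WT replicate 1 (3.77% of all genes, 1.86% counted as higher). Of 10 genes of compact myelin and membrane, 9 had WT replicate 1 and Sgo1-/+ replicate 3 as their highest pair. Plekhb1 had 8960, 3420 and 3944 normalized counts in WT and 4919, 4340 and 6840 in Sgo1-/+, with a log2 fold change of -0.02 (SE 0.39) that was 0.54 (SE 0.20) without WT replicate 1. Tspan2, a tetraspanin, had 0.24, and 0.54 without that library. The list's median log2 fold change was 0.16, and 0.61 without WT replicate 1.

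The 12 cytoplasmic and secreted genes of mature oligodendrocytes were less uniform. The pair of libraries was highest for 10 of 12, including Enpp2, the lysophospholipase autotaxin, with 10288, 5244 and 3647 normalized counts in WT and 4131, 3165 and 13138 in Sgo1-/+. Enpp2 is also expressed in choroid plexus. Tppp, a tubulin-binding protein, was instead lowest in WT replicate 1, with 4672 against 5701 to 8756 in the others, and the lipid carrier Apod was highest in WT replicate 2, with 10132. The median log2 fold change was 0.09, and 0.53 without WT replicate 1.

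Enzymes of myelin lipids gave the same pattern in 7 of 8 genes. Cers2, a ceramide synthase for very long acyl chains, had a log2 fold change of 0.01, Ugt8a, which makes galactosylceramide, -0.07, and Gltp, a glycolipid transfer protein, 0.19. Without WT replicate 1 they had 0.33, 0.70 and 0.60, and the list's median went from 0.03 to 0.50. Among 8 junction and adhesion genes, all 8 had the same highest pair, and the median went from 0.03 to 0.55. Nfasc, which anchors the loops beside the node of Ranvier, Cntn2 of the region next to it, and Lgi3 had -0.02 to 0.15, and 0.27 to 0.43 without WT replicate 1.

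The transcription factors had 6 of 10 log2 fold changes above 0 (49.8% of all genes), and 9 of 10 without WT replicate 1 (51.3% of all genes). Of the 10 oligodendrocyte transcription factors, of which Tcf7l2 is also among the 8 thalamic markers, 8 had WT replicate 1 and Sgo1-/+ replicate 3 as their highest pair. Myrf had 1383, 781 and 684 normalized counts in WT and 1152, 854 and 1600 in Sgo1-/+, with a log2 fold change of 0.34 (SE 0.33), and 0.72 (SE 0.24, unadjusted p = 0.0204) without WT replicate 1. Olig1 had 0.26 (SE 0.19) and Sox10 0.21 (SE 0.36), then 0.42 and 0.57. St18 and Zfp488, named after values were seen, had -0.68 and -0.09, and 0.74 and -0.11 without WT replicate 1. St18 was highest in WT replicate 1 and Zfp488 in WT replicate 2. The list's median went from 0.19 to 0.41.

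Precursor markers as a list were not high in WT replicate 1 and Sgo1-/+ replicate 3, with median log2 ratios of -0.36 and -0.05. Of 7, led by Pdgfra and Gpr17, 0 had that highest pair, against 12.5% of all tested genes. With 7 genes, 0 is near that share. Of the 7, 3 were highest in Sgo1-/+ replicate 3 and 1 in WT replicate 1, against 12.9% and 28.0% of all tested genes. The sum of the 7 was lowest in WT replicate 1, with 1535 normalized counts against 1881 to 2193 in the others. C1ql1, named after values were seen, went the other way, with 165 in WT replicate 1 against 74.1 to 91.4 elsewhere. Pdgfra, the growth factor receptor of precursors, had 415, 773 and 704 in WT and 939, 709 and 680 in Sgo1-/+. The list's median log2 fold change was 0.16, and 0.03 without WT replicate 1, when 1 of the 7 had an unadjusted p under 0.05, in the lower direction, against 3.77% of all genes in either direction.

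**Figure D5:**
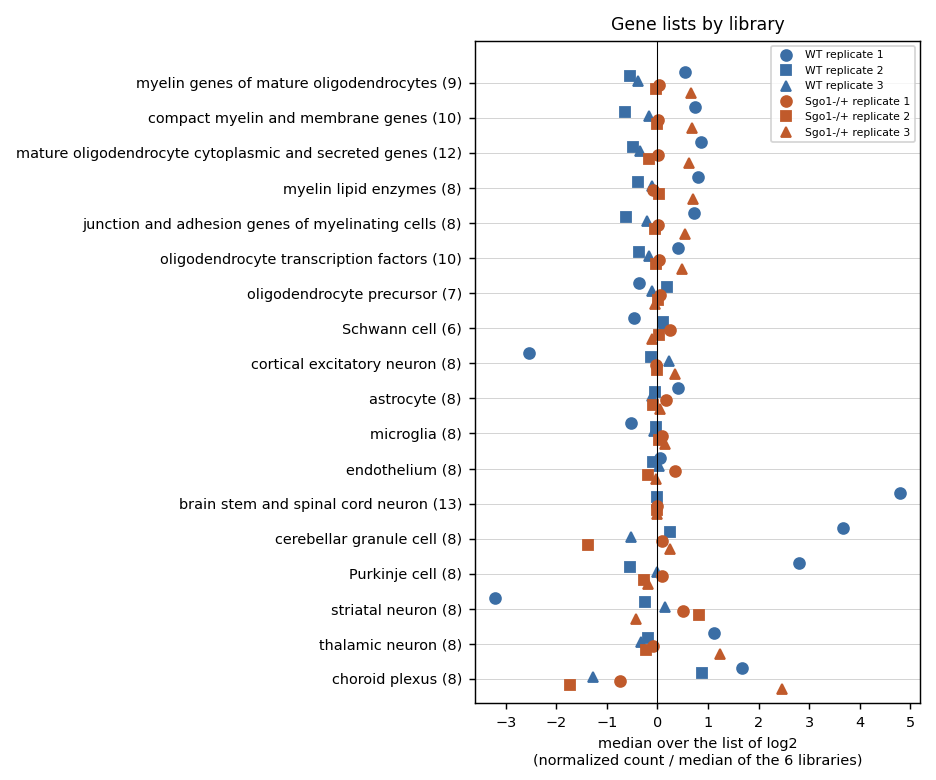
Median over each gene list of log2 of the ratio to a gene's median over the 6 libraries, for every library. The oligodendrocyte lists are high in WT replicate 1 and Sgo1-/+ replicate 3, precursor markers are low in WT replicate 1 (-0.36), and brain stem (4.80) and cerebellar granule cell markers (3.67) are high in WT replicate 1.

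Among 11287 candidate genes that are no members, with a mean of at least 100 normalized counts, those most like the median profile of the 9 over the 6 libraries were Neat1 (Pearson r of log2 CPM 0.994), Tmem80 (0.990), Sypl (0.990), Csrp1 (0.987) and Gltp (0.983). Neat1, a long noncoding RNA of nuclear paraspeckles, had 3382, 1289 and 1444 normalized counts in WT and 1915, 1981 and 3496 in Sgo1-/+. Of the 5, Gltp belongs to the lists above. Gjc3 and Gjb1, which encode gap junction connexins of oligodendrocytes and were looked up after values were seen, ranked 7th and 11th with 0.978 and 0.973. With 6 libraries and this many candidates, high values of r are to be found for any profile, and no test was made.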

How the data were processed

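RNA-seq of 6 cerebrum libraries was analyzed. By the study's methods, alignment of the paired reads was to mm10 in Strand NGS 2.1. The authors deposited an estimated count per Ensembl gene, not normalized, of which 47.3 to 48.5% per library are not whole. The submitters' processing notes also name BWA and edgeR. The Ensembl release and the counting rule are not given in the sources used here. The authors also deposited log2 values, DESeq-normalized and centered on each gene's median, which were used in 1 alternative. Further deposited columns hold the authors' own comparison, as a signed score, a log2 difference and a ratio (fold), and were not used. Of the 38087 gene IDs, 36308 are in GENCODE M21, from which coordinates and exon lengths came.

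Counts were rounded and compared with edgeR 4.0.16 (TMM, default filter on low counts, quasi-likelihood test, no covariate) in R 4.3.3, with Benjamini-Hochberg adjustment over all 16337 genes tested and a threshold of adjusted p under 0.05. The SE is the log2 fold change divided by the square root of F. For a normalized count, the count was scaled by TMM to the mean library size. Total counts of 11123917 to 12505561 set the precision, and a count of 0 allows up to 3 counts. Reads carry no molecular identifiers, so this covers counting error only. The script was tested on simulated data. Permutation tests (scipy 1.17.1) were exact, over 20 groupings. Alternatives used DESeq2 1.42.0, limma 3.58.1, other scalings and filters, sex or replicate number as a term, and libraries left out. Each library is a mouse.

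The 9 genes and all lists were chosen with earlier results of these data known. Named are the 9 genes, any gene called, the 3 most abundant genes of each oligodendrocyte list, the 2 most abundant of each marker list, and the 5 genes most alike. Some genes that this rule names are not reported here. Gjb1, Gjc3, Pmp2, Aqp4, Prkcd, St18, Zfp488 and C1ql1 were added after values were seen. Lhfpl3, a precursor marker, had no matching row. Sequences and motif windows came from RefSeq promoters (250 bases before each start).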

Additional observations from a re-analysis of the deposited data

How the results depend on the processing

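In all 17 alternative fits 0 of the 9 members and 0 genes of the further lists were called, and adjusted p ranged from 0.764 (Mal) to 1.00. Over all genes, DESeq2's Wald test called 3, edgeR's likelihood ratio test 2, and leaving out a library 0 to 1. The count of members with an unadjusted p under 0.05, 1 as reported, was 0 with limma on DESeq-normalized counts, with total counts as the scale, with sex as a covariate and with limma on the authors' values (added after seeing the data). It was 0 to 8 with a library left out, 8 without WT replicate 1, and 7 without both WT replicate 1 and Sgo1-/+ replicate 3. The count of log2 fold changes above 0 was 5 to 9 with a library left out, with the 5 without WT replicate 2, and the median was 0.03 to 0.68. Of 153 member fold changes under alternatives, 142 kept their direction. Mbp was at -0.0186 with total counts, and with a library left out Mbp ranged from -0.27 to 0.67, Mog from -0.0251 to 0.93, Mag from -0.26 to 0.91 and Ermn from -0.24 to 0.82. The cause was not tested. The replicate numbers are shared between groups, but same-numbered libraries did not deviate together (r = -0.146, 0.014 and -0.207 over 16337 genes), so they share only a number. With the replicate block 0 members had an unadjusted p under 0.05, the median was 0.36, and no library correlated best with its own number. The share of counts held by the members was 0.372 to 0.666% in WT and 0.502 to 0.677% in Sgo1-/+ with a library left out. The planned share without mitochondrially encoded genes was not run, since 0 such rows are in the table.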
